A study of Saccharomyces cerevisiae with 24 samples.

Results

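The data describe how budding yeast moved from an early to a later stage of oxygen deprivation, in 3 arrays of *HAP1* cells at 6 h and 3 arrays of *HAP1* cells at 1.5 h without oxygen. These are 6 of the 24 arrays of the series and 6 of the 18 that came from strain L51, and they were taken by the strain, plasmid and time that each sample title gives. The strain is of mating type *MATa* with the alleles *hap1::LEU2*, *ade1-100*, *his4-519*, *trp1::HisG*, *ura3-52* and *leu2-3, 112*, so its chromosomal *HAP1* is disrupted in every sample, and the *HAP1* cells express Hap1 from an ARS-CEN plasmid that holds the genomic sequence. Both times were sampled in synthetic complete medium in a chamber at about 10 ppb oxygen, and the RNA of each condition came from 3 separately grown batches of cells. The labels give L51 for all 6 arrays, whereas the study's text also mentions that a replicate was made in another strain. Which number that was is not given in the sources used here, and its part in the differences between replicates was not tested. The activator is plasmid-borne on all 6 arrays. All 5449 *S. cerevisiae* genes that the arrays could name were tested.

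Yeast senses oxygen largely through molecules whose synthesis needs it. Heme keeps the activator Hap1 active and sustains Rox1, the repressor of hypoxic genes, while falling sterol activates Upc2, and loss of both signals opens genes such as the *DAN*, *TIR* and *PAU* cell wall mannoproteins, the sterol importers and the hypoxic isoforms of respiratory proteins. Growth without oxygen also requires a switch from respiration to fermentation, and ribosome production, which takes up much of the transcription of a growing cell, is adjusted to the growth rate. In bulk RNA a lower level per cell and a smaller share of cells that express a gene cannot be told apart.

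The labels were checked with genes of known oxygen response, and the plot of these genes across air, 1.5 h and 6 h shows how the arrays compared. *HAP1* itself read 11.19, 11.52 and 10.95 (log2 intensity, replicates 1 to 3) at 6 h and 11.61, 12.13 and 10.26 at 1.5 h, above the 5.76, 6.03 and 6.57 of *Δhap1* cells at 6 h. *ANB1*, the hypoxic form of translation factor eIF5A, read 14.31, 14.33 and 13.02 at 6 h, and 14.14, 13.41 and 9.02 at 1.5 h. The 1.5 h array of replicate 3 therefore sat below the 9.63 of its own air array, while the other 1.5 h arrays lay close to 6 h. *DAN1* read 14.50, 14.55 and 12.77 at 6 h, and 14.15, 13.57 and 8.01 at 1.5 h, where the replicate 3 array lay near the 7.55 of its air array and was not above background, which here means brighter than 95% of the array's probe sets for fission yeast.

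The 1.5 h array of replicate 3 was not like air in every respect. *IZH4*, a membrane protein linked to zinc and sterol, read 13.18, 13.55 and 12.39 at 6 h and 13.35, 13.60 and 12.48 at 1.5 h, against 9.28, 11.59 and 10.15 in air. *OLE1*, the fatty acid desaturase, read 14.33, 14.42 and 14.12 at 6 h and 14.36, 14.36 and 14.11 at 1.5 h. In air it read 13.63, 12.77 and 13.96, so in replicate 3 it hardly separates air from either time. Both genes were thus at their 6 h level on all 3 early arrays, and their fitted differences between 6 h and 1.5 h were -0.10 (SE 0.37, adjusted p = 0.88) and 0.01 (SE 0.25, adjusted p = 0.98). Across all genes the 1.5 h array of replicate 3 correlated with its air array at r = 0.98, against 0.94 and 0.89 for replicates 1 and 2. The air and 1.5 h arrays shared a hybridization round in replicates 1 and 3 but not in replicate 2, and the part of this was not tested. The 6 h array of replicate 3 was also lower than the other 6 h arrays for several hypoxic genes, as given below.

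**Figure D1:**
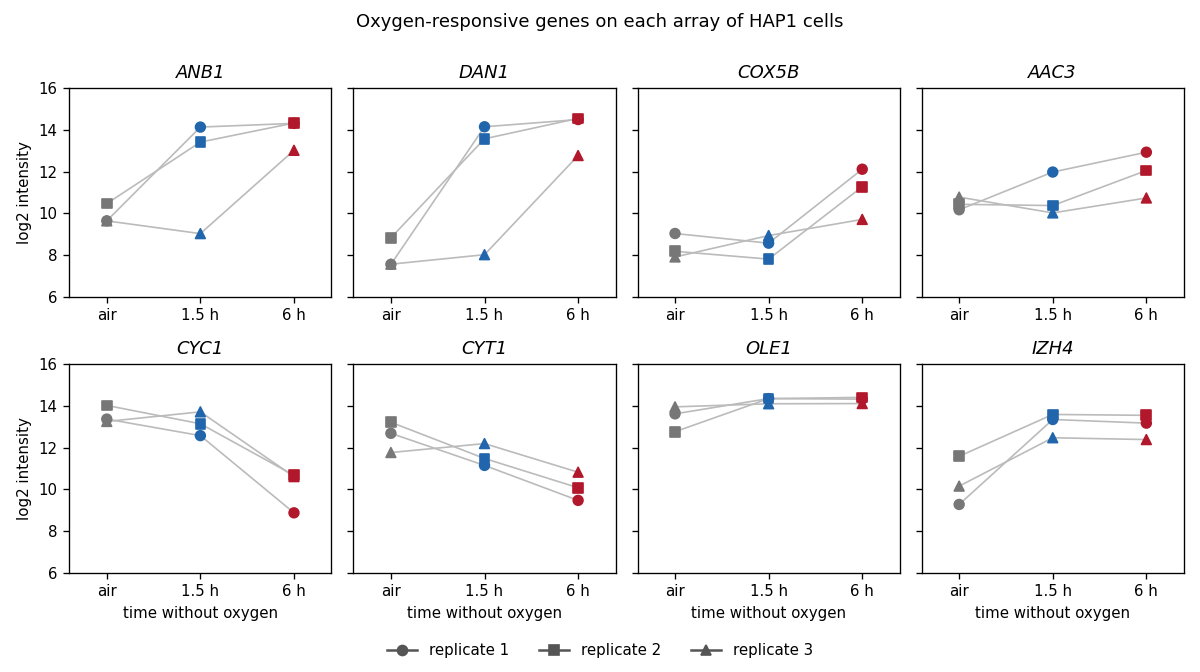
Log2 intensity of 8 oxygen-responsive genes on each array of *HAP1* cells in air, at 1.5 h and at 6 h without oxygen, with a marker shape for each replicate and lines joining arrays of the same number. *ANB1* and *DAN1* at 1.5 h were near their 6 h level in replicates 1 and 2 and near air in replicate 3, while *OLE1* and *IZH4* were at their 6 h level on all 3 arrays. For *OLE1* the air array of replicate 3 was close to that level as well.

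In the deposited scaling, more genes were lower than higher at 6 h. Limma, with the replicate number as a block and all 18 L51 arrays in the fit, called 194 genes higher (3.56% of 5449) and 638 genes lower at 6 h (11.7%) at an adjusted p of 0.05, with a smallest adjusted p of 0.018. Besides the arrays compared, that fit held *HAP1* arrays from air, *HAP1* arrays treated with cobalt chloride, and *Δhap1* arrays from aerobic and anaerobic growth. The spread among those further arrays entered every p-value, and the fit to the 6 h and 1.5 h arrays alone called 0 genes in either direction. The median difference of all genes was -0.23 on the log2 scale. Scaling the *S. cerevisiae* probe sets to equal distributions moved that median to -0.03 and gave 299 genes higher and 227 lower, and the share of higher genes among those called was 56.8%, against 23.3% in the deposited scaling. The direction of small changes therefore depends on the scaling, and each difference below is to be read against the median of -0.23. By pair the median of all genes was -0.15, -0.12 and -0.40 in replicates 1, 2 and 3, and pair values are to be read against these. Of the genes tested, 77.6% to 91.4% were above background on the 6 h arrays and 81.6% to 93.0% on the 1.5 h arrays. Whether this share moved the counts was not tested.

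The counts rest on the pairing and most on the arrays of replicates 1 and 2. Without the replicate block limma called 0 genes in either direction, with a smallest adjusted p of 0.056 and 314 genes higher and 852 lower at an unadjusted p under 0.05. Leaving out the 1.5 h array of replicate 3 gave 569 genes higher (10.4%) and 855 lower (15.7%), among them 188 and 592 of those called with all arrays. Leaving out the 6 h array of replicate 3 gave 239 and 712. Leaving out any of the replicate 1 or replicate 2 arrays of either time gave 0 genes, with smallest adjusted p-values of 0.085 and 0.10 without 1.5 h replicates 1 and 2, and 0.12 and 0.076 without 6 h replicates 1 and 2. At an unadjusted p under 0.05 these fits held 247 to 312 genes higher and 908 to 1114 lower. With the hybridization round in place of the replicate number as the block, 61 genes were called higher and 107 lower.

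The plot of pair differences shows the same division. Over 5449 genes the change in replicate 1 correlated with that in replicate 2 at r = 0.86, and 82.7% of genes moved the same way, whereas replicate 3 correlated with replicates 1 and 2 at r = 0.12 and -0.01 (genes are not independent replicates). At least 2-fold changes numbered 650 higher and 949 lower genes in replicate 1, 712 and 1039 in replicate 2, and 83 and 1015 in replicate 3. Replicate 2 is the pair whose arrays were hybridized in the same round. In replicates 1 and 3 the 2 times were hybridized in separate rounds of the same day. All 3 pairs had the same sign for 577 genes that were higher at 6 h (10.6%) and 2118 that were lower (38.9%). A change of at least 2-fold in all 3 pairs was met by 18 genes in the direction of a rise (0.330%) and 116 in the direction of a fall (2.13%), and in replicates 1 and 2 alone by 437 (8.02%) and 717 (13.2%).

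**Figure D2:**
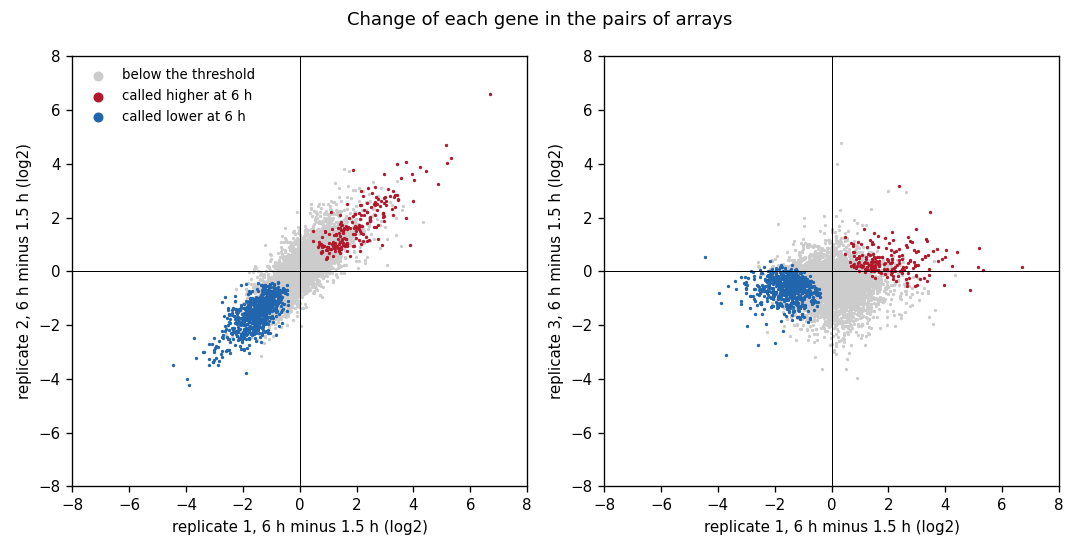
Log2 difference between 6 h and 1.5 h of each of 5449 genes in replicate 1 (horizontal axes) against replicate 2 (left) and replicate 3 (right), with genes called by limma in red (higher at 6 h) and blue (lower). Replicates 1 and 2 follow each other (r = 0.86), and replicate 3 does not follow replicate 1 (r = 0.12).

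Genes of ribosome assembly had the lowest median of the 40 lists examined. Of 94 measured ribosome biogenesis genes, which process the ribosomal RNA and assemble the subunits in the nucleolus, limma called 59 lower and 0 higher at 6 h, against 11.7% of all genes lower. Their median difference was -1.31, and it was -1.88, -1.55 and -0.52 in the pairs of replicates 1, 2 and 3. The median of all genes in those pairs was -0.15, -0.12 and -0.40. Of the 94 genes, 82 were lower in every pair, as were 38.9% of all genes. Equal-distribution scaling left a median of -1.11 with 34 called lower, against 227 of all 5449 genes. Leaving out the 1.5 h array of replicate 3 gave 79 called lower, against 15.7% of all genes.

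*RRP14*, needed for ribosomal RNA processing, read 8.38, 6.76 and 9.0 at 6 h, and 12.28, 10.99 and 10.19 at 1.5 h. The difference of -3.10 (SE 0.62, adjusted p = 0.018) was the largest fall among genes that changed 2-fold in all pairs. *UTP14*, a part of the processome that makes the small subunit, was outside the list above. It read 8.90, 7.30 and 9.08 at 6 h, and 12.09, 10.79 and 10.30 at 1.5 h. It was lower by a log2 difference of -2.64 (SE 0.39, adjusted p = 0.018). *NOP16*, which acts in large subunit assembly, read 9.07, 7.64 and 9.29 at 6 h, and 11.94, 10.47 and 10.64 at 1.5 h (difference -2.35, SE 0.44). *EBP2*, of the same pathway, had a difference of -2.42 (SE 0.47), and *FPR3*, a nucleolar prolyl isomerase, of -1.37 (SE 0.22). *RRP14*, *UTP14*, *NOP16* and *EBP2* were above background on 2 of the 6 h arrays each.

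Some transcripts of ribosome assembly reached background, among them *FAF1*, which was outside the list above. *FAF1* and *ESF1*, both needed to make the small subunit, were not above background on any 6 h array and were above it on all 3 of the 1.5 h arrays. They were at least 2.50-fold and at least 2.97-fold lower at 6 h (adjusted p = 0.018 each), a bound that takes the mean at 1.5 h against the higher of the background limit and the gene's own signal at 6 h.

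Some genes for the transcription of ribosomal and transfer RNA were called lower as well. Of 21 genes for subunits and factors of RNA polymerases I and III, 6 were called lower and 0 higher, against 11.7% and 3.56% of all genes, with a median of -0.92 (-1.04, -0.90 and -0.65 by pair). *RPA34*, a subunit of polymerase I, had a difference of -1.80 (SE 0.36, adjusted p = 0.018), and *RPC34*, a subunit of polymerase III, of -1.34 (SE 0.32, adjusted p = 0.023). *RPC53* of polymerase III was lower, at -2.84 and -2.58 in replicates 1 and 2, and its difference was -0.003 in replicate 3 (adjusted p = 0.030, and 0.065 under equal-distribution scaling), with 2 of the 6 h arrays above background. Among 18 aminoacyl tRNA synthetases the median was -0.55, and 16 were lower in every pair, as were 38.9% of all genes. Limma called 1 of the 18, the lysine enzyme *KRS1* (-0.84, SE 0.19). Of the ribosome itself, 0 of 23 single-copy genes for cytosolic ribosomal proteins were called, with a median of -0.04. None of them had an unadjusted p under 0.05 in limma, and ribosomal protein genes with near-identical copies were not in the list.

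**Figure D3:**
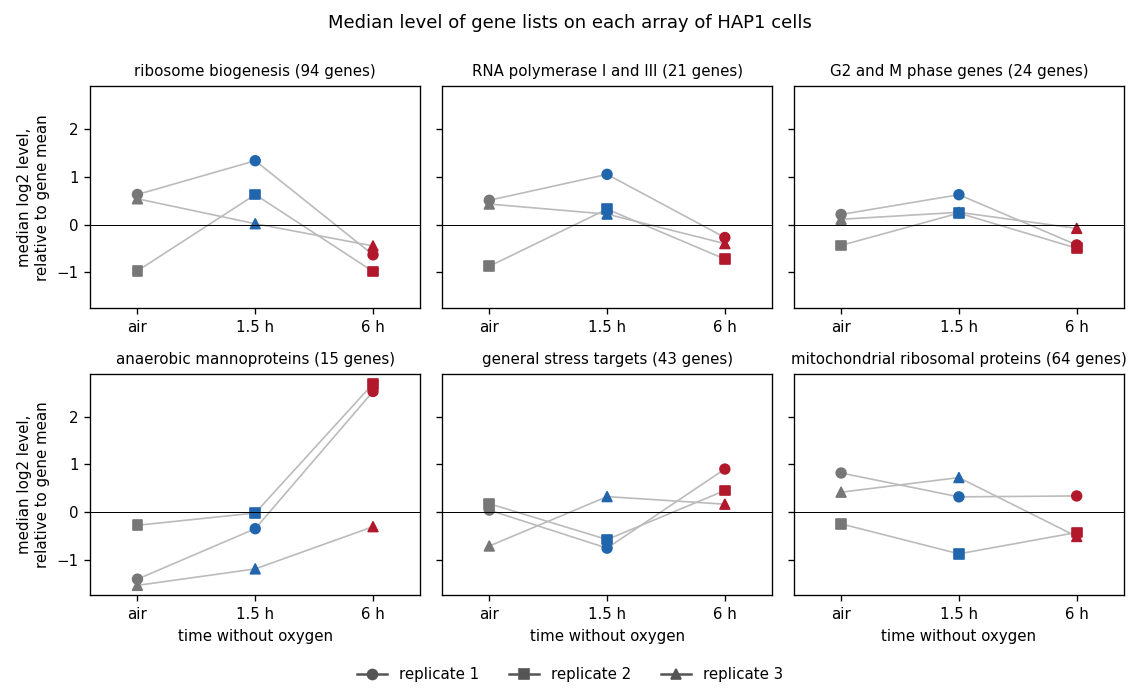
Median log2 level of 6 gene lists on each array of *HAP1* cells, after subtracting from each gene its mean over the 9 arrays in air, at 1.5 h and at 6 h. Ribosome biogenesis genes were at -0.63, -0.98 and -0.44 on the 6 h arrays, against 1.34, 0.63 and 0.02 on the 1.5 h arrays, and the anaerobic mannoproteins of replicate 3 were at -0.31 at 6 h, against -1.19 at 1.5 h.

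On the array medians of the ribosome biogenesis list, the air arrays read 0.63, -0.97 and 0.54 relative to each gene's mean. The 1.5 h arrays read 1.34, 0.63 and 0.02, above the air array of the same number in replicates 1 and 2 and below it in replicate 3. The 6 h arrays read -0.63, -0.98 and -0.44, and lay below the air array of the same number in all 3. The air array of replicate 2 was itself low, and 67.6% of its genes were above background, the lowest share of the 3 air arrays.

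Cell cycle genes were among those called lower at 6 h, and their medians lay below that of all genes in replicates 1 and 2 but not in replicate 3. Limma called 8 of 26 G1 and S phase genes and 8 of 24 G2 and M phase genes lower, and 0 of either list higher, against 11.7% and 3.56% of all genes, with medians of -0.77 and -0.85. The pair medians were -1.13, -1.10 and -0.16 for the G1 and S genes and -1.0, -0.93 and -0.32 for the G2 and M genes. Those of all genes were -0.15, -0.12 and -0.40, so in replicate 3 both lists lay above the median of all genes. *CLB2*, the main mitotic cyclin, read 8.81, 8.38 and 9.91 at 6 h, and 11.29, 10.28 and 10.56 at 1.5 h, a difference of -1.68 (SE 0.39, adjusted p = 0.023). *SWI5*, a transcription factor of the end of mitosis, had a difference of -1.67 (SE 0.32, adjusted p = 0.018). Both were above background on 2 of the 6 h arrays. *POL1*, the catalytic subunit of DNA polymerase alpha, had a difference of -1.49 (SE 0.41, adjusted p = 0.033), and it was lower in every pair. *ORC1*, which marks replication origins and is in neither list, was lower, at -2.35 (SE 0.64, adjusted p = 0.033) and above background on 1 of the 6 h arrays. Under equal-distribution scaling 1 of the G1 and S genes and 3 of the G2 and M genes were called lower, against 227 of all 5449 genes. *RNR3*, a ribonucleotide reductase subunit known for its induction by DNA damage, went the other way, with 12.44, 12.32 and 11.09 at 6 h, and 10.79, 9.83 and 9.79 at 1.5 h (difference 1.81, SE 0.32, adjusted p = 0.018).

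The anaerobic mannoproteins of the cell wall had the highest median of the 40 lists. All 15 measured *DAN*, *TIR* and *PAU* genes were higher at 6 h in every pair, as were 10.6% of all genes. Limma called 8 of the 15 higher and 0 lower, against 3.56% of all genes higher. Their median difference was 1.66, and it was 2.12 and 1.95 in replicates 1 and 2 and 0.45 in replicate 3. *PAU2* read 14.67, 14.52 and 10.06 at 6 h, and 9.52, 9.81 and 9.90 at 1.5 h, a difference of 3.34 (SE 0.76, adjusted p = 0.021). The 6 h array of replicate 3 was thus at the 1.5 h level while the others were more than 4 log2 units above it. *PAU5* read 14.21, 13.86 and 10.28 at 6 h, and 9.03, 9.84 and 9.39 at 1.5 h (difference 3.37, SE 0.73, adjusted p = 0.020), and its replicate 3 pair differed by 0.89.

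*PAU3* read 13.51, 13.30 and 6.91 at 6 h, and 6.83, 6.70 and 6.73 at 1.5 h. It was above background on 2 of the 6 h arrays and on 0 of the 1.5 h arrays, and was at least 8.61-fold higher at 6 h (adjusted p = 0.020). The *PAU* genes are near-identical copies that can share probe signal, so each is uncertain as a gene of its own. The mannoproteins did not share an early level. *DAN1* and *TIR1* were already high at 1.5 h in replicates 1 and 2, and *PAU2*, *PAU5* and *PAU3* were not. *TIR1* read 14.60, 14.72 and 13.19 at 6 h, and 14.30, 14.44 and 10.90 at 1.5 h. For *ANB1*, *DAN1* and *TIR1* the differences of 1.70 (SE 1.01), 2.03 (SE 1.00) and 0.96 (SE 0.71) did not pass the threshold (adjusted p = 0.26, 0.17 and 0.37). Without the 1.5 h array of replicate 3 these differences were 0.07, 0.25 and -0.04.

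Other hypoxic genes divided in a like way. Of 25, limma called 9 higher and 1, *ROX1*, lower at 6 h, against 3.56% and 11.7% of all genes, with a median of 0.99, which was 0.33 without the 1.5 h array of replicate 3. *COX5B*, the hypoxic form of a cytochrome c oxidase subunit, read 12.11, 11.27 and 9.70 at 6 h, and 8.56, 7.80 and 8.93 at 1.5 h. Its difference was 2.60 (SE 0.43, adjusted p = 0.018), and it was above background on 2 of the 1.5 h arrays. *YSR3*, a phosphatase of sphingoid base phosphates, read 13.82, 13.79 and 10.26 at 6 h, and 10.10, 9.73 and 9.43 at 1.5 h (difference 2.87, SE 0.54, adjusted p = 0.018). The sterol importers *AUS1* and *PDR11* were higher by 1.42 (SE 0.33, adjusted p = 0.023) and 1.64 (SE 0.34, adjusted p = 0.019). *ARE1*, which esterifies sterol, and *EUG1*, a protein disulfide isomerase of the endoplasmic reticulum, were higher by 1.24 (SE 0.36, adjusted p = 0.038) and 1.00 (SE 0.26, adjusted p = 0.030). Without the 1.5 h array of replicate 3 the adjusted p of *ARE1* was 0.070. *HES1*, an oxysterol-binding protein, was at least 2-fold higher in every pair (1.22, 2.60 and 1.71), and its difference of 1.84 (SE 0.67) did not pass the threshold (adjusted p = 0.074).

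In sterol synthesis the isoforms of HMG-CoA reductase, its rate-limiting enzyme, moved in opposite directions. *HMG1* read 11.93, 12.01 and 12.42 at 6 h, and 13.63, 13.63 and 13.17 at 1.5 h, a difference of -1.36 (SE 0.39, adjusted p = 0.037). *HMG2*, the isoform known to be used without oxygen, read 13.35, 13.57 and 12.54 at 6 h, and 12.60, 12.55 and 12.31 at 1.5 h, a difference of 0.66 (SE 0.20, adjusted p = 0.043). *ERG7*, lanosterol synthase, was the other of the 25 sterol genes called, at -0.99 (SE 0.28), and the list median of -0.20 was close to that of all genes. *FAA1*, which activates long-chain fatty acids, was lower, at -2.24 (SE 0.65, adjusted p = 0.037) and above background on 1 of the 6 h arrays, and its adjusted p was 0.051 without the 1.5 h array of replicate 3. Under equal-distribution scaling neither *ERG7* nor *FAA1* passed (adjusted p = 0.051 and 0.064). *INO1*, which makes inositol phosphate for phospholipids, was higher by 2.38 (SE 0.58, adjusted p = 0.025), with pair differences of 4.00, 2.62 and 0.53.

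Respiratory genes did not move as a block. Limma called 2 of 26 respiratory chain genes lower and 3 higher at 6 h, against 11.7% and 3.56% of all genes. *CYC1*, cytochrome c, read 8.87, 10.67 and 10.61 at 6 h, and 12.58, 13.15 and 13.72 at 1.5 h. It was lower on every 6 h array by a difference of -3.10 (SE 0.79, adjusted p = 0.027), and this was similar in the 3 pairs (-3.71, -2.47 and -3.11). *QCR6*, which codes for part of the bc1 complex, read 8.66, 9.30 and 8.89 at 6 h, and 10.65, 11.02 and 11.53 at 1.5 h (difference -2.12, SE 0.47, adjusted p = 0.021). The genes called higher included *SDH4* and *SDH1* of succinate dehydrogenase, which feeds electrons from the citric acid cycle. *SDH4* read 13.04, 12.84 and 12.58 at 6 h, and 10.51, 9.90 and 12.53 at 1.5 h (difference 1.84, SE 0.54, adjusted p = 0.038), and *SDH1* was higher by 1.29 (SE 0.39, adjusted p = 0.042). In replicate 3 the *SDH4* arrays differed by 0.05. The third gene called higher, *NDE2*, an external NADH dehydrogenase, was above background on 1 of the 6 h arrays and on 0 of the 1.5 h arrays and was at least 1.19-fold higher (adjusted p = 0.044). *SDH2* and *SDH3* differed by 1.05 (SE 0.49, adjusted p = 0.15) and 1.55 (SE 0.54, adjusted p = 0.064) and did not pass.

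The medians of nuclear genes for mitochondrial complexes differed between pairs and were lowest in replicate 3. The median of all genes was also lowest there, at -0.40. The median of the respiratory chain list was -0.33, -0.22 and -1.35 in replicates 1, 2 and 3, that of 16 ATP synthase genes was 0.21, 0.81 and -1.01, and that of 64 mitochondrial ribosomal protein genes was 0.01, 0.39 and -1.24. Limma called 0 ATP synthase genes in either direction, with 1 higher at an unadjusted p under 0.05, and 3 mitochondrial ribosomal protein genes lower. The 6 h arrays of replicates 2 and 3 and the 1.5 h array of replicate 2 had the lowest medians of the last list, at -0.43, -0.51 and -0.88 relative to the gene means.

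Genes of the general stress response had a positive median in 2 of the 3 pairs. Of 43 targets limma called 10 higher and 0 lower, against 3.56% and 11.7% of all genes, with a median of 0.86 and pair medians of 1.49, 0.95 and -0.14. In replicate 3 the median of all genes was lower, at -0.40. Leaving out the 1.5 h array of replicate 3 gave 26 called higher, against 10.4% of all genes. *SPI1*, a cell wall protein, read 12.64, 12.23 and 11.62 at 6 h, and 9.28, 9.83 and 10.50 at 1.5 h, a difference of 2.30 (SE 0.42, adjusted p = 0.018). *TFS1*, an inhibitor of carboxypeptidase Y, read 13.92, 13.78 and 11.70 at 6 h, and 10.48, 11.11 and 11.84 at 1.5 h (difference 1.99, SE 0.48, adjusted p = 0.025), so the replicate 3 arrays did not differ in the same direction. *YDJ1* was the only one of 27 heat shock chaperone genes called, and it was lower, at -0.60 (SE 0.19, adjusted p = 0.049).

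Storage carbohydrate genes held the largest rise among genes 2-fold apart in all 3 pairs. *GPH1*, glycogen phosphorylase, read 11.69, 10.33 and 11.43 at 6 h, and 8.24, 7.64 and 9.23 at 1.5 h. It was higher in every pair (3.45, 2.70 and 2.19), and its difference of 2.78 (SE 0.54, adjusted p = 0.018) headed those genes. It was above background on 2 of the 1.5 h arrays. *GSY1*, a glycogen synthase, read 9.98, 9.78 and 9.91 at 6 h, and 7.71, 7.49 and 9.16 at 1.5 h (difference 1.77, SE 0.40, adjusted p = 0.021), and was above background on 1 of the 1.5 h arrays. *GLC3*, the branching enzyme, and *GDB1*, the debranching enzyme, were higher by 2.27 (SE 0.57) and 1.44 (SE 0.34). Genes for making glycogen and for breaking it down were thus both among the 5 of 20 called in the glycogen and trehalose list (3.56% of all genes were called higher), which had a median of 0.50. *TSL1*, of the trehalose synthase complex, read 12.48, 11.93 and 12.37 at 6 h, and 8.86, 9.64 and 11.997 at 1.5 h, and did not pass the threshold (difference 2.09, SE 0.71, adjusted p = 0.061).

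Glycolysis and fermentation genes had a median of 0.09 over 27 genes, and limma called 4 higher and 0 lower, against 3.56% and 11.7% of all genes. *HXK1*, the hexokinase that cells use when glucose is scarce, read 13.51, 12.65 and 13.18 at 6 h, and 10.19, 9.89 and 11.98 at 1.5 h (difference 2.43, SE 0.56, adjusted p = 0.022). *TDH1*, a glyceraldehyde phosphate dehydrogenase isoform, and *ENO1*, an enolase, were higher by 1.36 (SE 0.27, adjusted p = 0.018) and 0.70 (SE 0.17, adjusted p = 0.026). *PDC6*, a minor pyruvate decarboxylase, was higher by 0.80 (SE 0.25, adjusted p = 0.048), and its adjusted p was 0.11 without the 1.5 h array of replicate 3 and 0.060 under equal-distribution scaling.

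Nitrogen, vitamin and zinc genes gave scattered rises. Of 28 genes for the use of poor nitrogen sources 5 were called higher and 0 lower, against 3.56% and 11.7% of all genes. *DAL4*, the allantoin permease, read 12.02, 11.37 and 11.05 at 6 h, and 9.05, 9.31 and 10.34 at 1.5 h (difference 1.92, SE 0.32, adjusted p = 0.018). *CAR2*, of arginine breakdown, and *UGA4*, a transporter of gamma-aminobutyrate, were higher by 1.57 (SE 0.47) and 1.05 (SE 0.23). *PTR2*, which imports small peptides and was outside that list, read 11.61, 11.84 and 12.66 at 6 h, and 9.47, 10.16 and 11.21 at 1.5 h (difference 1.76, SE 0.52, adjusted p = 0.041).

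*ARO10* and *ARO9*, which break down aromatic amino acids, differed 2-fold or more in every pair. *ARO10* read 12.26, 10.99 and 13.26 at 6 h, and 9.65, 8.85 and 10.31 at 1.5 h, and its difference of 2.57 (SE 0.87) did not pass the threshold (adjusted p = 0.060). *ARO9* read 11.57, 11.70 and 13.96 at 6 h, and 9.60, 10.11 and 10.97 at 1.5 h (difference 2.18, SE 0.77, adjusted p = 0.069). Neither gene overlapped between the times, but both were chosen for a 2-fold change in every pair, which makes overlap less likely.

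*ZPS1*, a cell wall protein of the zinc regulon, read 14.28, 14.17 and 13.83 at 6 h, and 11.91, 11.95 and 10.66 at 1.5 h (difference 2.58, SE 0.58, adjusted p = 0.021). It was higher by 2.37, 2.21 and 3.17 in the 3 pairs, so the change was no smaller in replicate 3. *BIO3* and *BIO5*, of biotin synthesis and the uptake of its precursors, were higher by 2.03 (SE 0.53, adjusted p = 0.030) and 1.77 (SE 0.52, adjusted p = 0.039), and *THI4*, of thiamine synthesis, by 1.85 (SE 0.44, adjusted p = 0.024). The pair differences of *BIO3* were 3.73, 1.97 and 0.38, and those of *THI4* were 2.97, 2.74 and -0.16.

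Further genes that rose were named singly. *PIR3* was the 1 of 10 aerobic cell wall proteins called higher, and *ATG33* was among the 2 of 28 autophagy genes, against 3.56% of all genes. *YPS3*, *PRY1* and *PMT3* were named for the size of their rise or their p-value. *YPS3*, a yapsin protease of the cell surface, read 12.70, 13.12 and 12.09 at 6 h, and 9.74, 11.26 and 10.50 at 1.5 h (difference 2.14, SE 0.38, adjusted p = 0.018). *PRY1*, a secreted sterol-binding protein, read 13.40, 13.59 and 12.66 at 6 h, and 10.72, 11.95 and 11.37 at 1.5 h (difference 1.87, SE 0.37, adjusted p = 0.018). *ATG33*, which acts in the removal of mitochondria by autophagy, read 12.75, 12.74 and 12.82 at 6 h, and 9.92, 10.30 and 11.72 at 1.5 h (difference 2.12, SE 0.41, adjusted p = 0.018). *PIR3*, a covalently bound cell wall protein, was higher by 2.74 (SE 0.53, adjusted p = 0.018), and *PMT3*, a protein mannosyltransferase, by 1.78 (SE 0.32, adjusted p = 0.018).

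**Figure D4:**
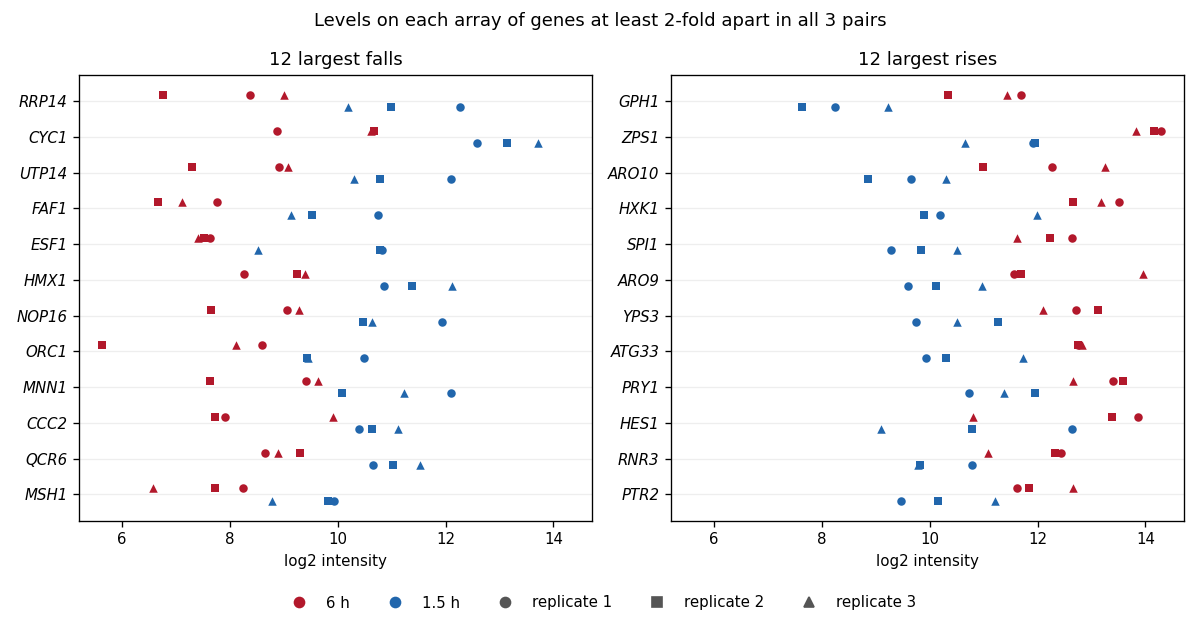
Log2 intensity on each array at 6 h (red) and 1.5 h (blue) of the 12 largest falls (left) and 12 largest rises (right) among genes at least 2-fold apart in all 3 pairs, with a marker shape for each replicate. The falls run from *RRP14* (-3.10) and *CYC1* (-3.10), the rises from *GPH1* (2.78), and *ARO10*, *ARO9* and *HES1* did not pass the limma threshold.

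Genes of the iron regulon differed in both directions. Limma called 6 of 28 genes lower and 3 higher, against 11.7% and 3.56% of all genes, and the list median was 0.02. *FET3*, the multicopper oxidase of high-affinity iron uptake, which needs oxygen, read 9.05, 10.07 and 13.08 at 6 h, and 13.02, 14.06 and 13.88 at 1.5 h, a difference of -2.92 (SE 0.65, adjusted p = 0.021). Its permease partner *FTR1* read 10.59, 11.41 and 12.77 at 6 h, and 12.97, 13.74 and 13.40 at 1.5 h (difference -1.78, SE 0.40, adjusted p = 0.021), and *CCC2*, which loads copper into Fet3, was lower, at -2.21 (SE 0.59, adjusted p = 0.031) and above background on 1 of the 6 h arrays. The pair differences of *FET3* were -3.97, -3.99 and -0.79, and those of *FTR1* were -2.38, -2.32 and -0.63, so both were lower in every pair and least so in replicate 3.

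*HMX1*, a heme oxygenase, read 8.26, 9.24 and 9.40 at 6 h, and 10.86, 11.39 and 12.13 at 1.5 h, a difference of -2.49 (SE 0.55, adjusted p = 0.020) that was alike in the 3 pairs. The genes called higher were *FIT1* and *FIT2*, mannoproteins that hold siderophore iron in the wall (0.96, SE 0.29, and 1.54, SE 0.45), and *TIS11*, which destabilizes messages of iron-using proteins (1.38, SE 0.41, above background on 2 of the 1.5 h arrays). *AFT1*, the activator of the regulon, was lower, at -1.53 (SE 0.36, adjusted p = 0.023), and *FRE4*, a reductase gene, at -1.07 (SE 0.33, adjusted p = 0.043). Under equal-distribution scaling neither passed (adjusted p = 0.069 and 0.13).

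Of 19 oxygen and heme regulators 5 were called lower and 0 higher, against 11.7% and 3.56% of all genes, with a median of -0.57. *ROX1*, the heme-dependent repressor of hypoxic genes, read 8.26, 10.02 and 11.90 at 6 h, and 12.71, 13.51 and 11.37 at 1.5 h. It was lower, at -4.45 and -3.49 in replicates 1 and 2 and higher by 0.53 in replicate 3, and the difference of -2.47 (SE 0.78) passed narrowly (adjusted p = 0.048). *HAP4*, the limiting activator of respiratory genes, read 8.90, 8.86 and 10.00 at 6 h, and 11.91, 11.86 and 10.61 at 1.5 h (difference -2.21, SE 0.44, adjusted p = 0.018). *MOT3* and *IXR1*, which also act on hypoxic genes, were lower, at -1.19 (SE 0.35) and -1.19 (SE 0.29), with replicate 3 differences of -0.01 and -0.09. *HAP2*, a DNA-binding subunit of the complex that Hap4 joins, was the fifth, at -0.90 (SE 0.24, adjusted p = 0.031). Of these, *HAP4* alone passed under equal-distribution scaling (adjusted p = 0.025).

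*MGA2*, the membrane-bound activator of *OLE1*, read 10.88, 9.78 and 9.62 at 6 h, and 11.34, 10.65 and 10.14 at 1.5 h (difference -0.61, SE 0.37, adjusted p = 0.27). *UPC2*, the sterol-sensing activator of the mannoproteins, read 12.95, 12.51 and 10.40 at 6 h, and 11.82, 11.45 and 9.79 at 1.5 h, higher in every pair without passing (difference 0.94, SE 0.50, adjusted p = 0.21). *HAP1* did not pass (-0.11, SE 0.39, adjusted p = 0.87), and its difference was 0.13 under equal-distribution scaling. Among the 16 signalling and transcription regulators that the study singles out, a list drawn from these samples and so no independent evidence, limma called 3 lower and 0 higher, against 11.7% and 3.56% of all genes. The 3 were *PPH3*, a phosphatase subunit (-1.62, SE 0.35, adjusted p = 0.020), *RGS2*, a regulator of glucose signalling through a G protein (-1.57, SE 0.41, adjusted p = 0.029, above background on 1 of the 6 h arrays), and *BEM2*, a GTPase-activating protein (-1.11, SE 0.35, adjusted p = 0.048). *PPH3* read 9.46, 8.97 and 9.29 at 6 h, and 11.59, 10.37 and 10.62 at 1.5 h. Under equal-distribution scaling *RGS2* and *BEM2* did not pass (adjusted p = 0.11 and 0.065).

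**Figure D5:**
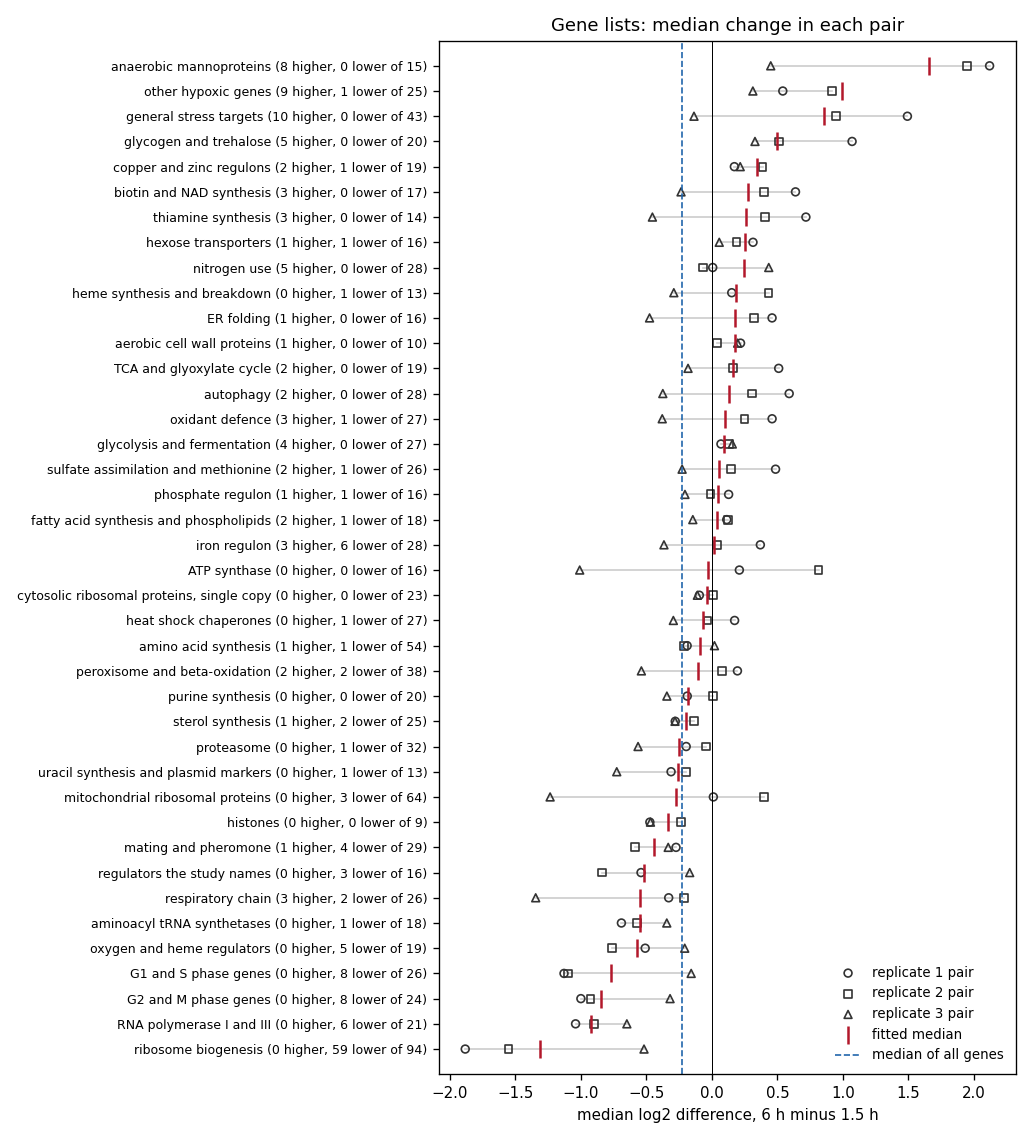
Median log2 difference between 6 h and 1.5 h of 40 gene lists, fitted (red bars) and in the pair of each replicate (open markers), with the number of genes called higher and lower of those measured. Ribosome biogenesis lies lowest at -1.31 and the anaerobic mannoproteins highest at 1.66, and the dashed line marks the median of all genes, -0.23.

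Against cells in air, most of the called genes had their extreme level at 1.5 h. Of the 638 genes lower at 6 h, 613 (96.1%) had a fitted 1.5 h level above both air and 6 h, as did 50.5% of all genes. Of the 194 genes higher at 6 h, 156 (80.4%) had a fitted 1.5 h level below both air and 6 h, as did 24.6% of all genes. A gene higher at 6 h cannot meet the first condition, nor a gene lower at 6 h the second, so the shares of all genes are low by construction. Among all genes with a lower fitted level at 6 h, 2750 had 1.5 h above both and 760 had it between. Among those with a higher level at 6 h, 1343 had 1.5 h below both and 596 had it between. The 1.5 h arrays enter both differences, so a high or low 1.5 h value raises the shares of the called genes, and no test was made of them. The median of the 638 genes was 0.57 above air at 1.5 h and -0.65 relative to air at 6 h, and that of the 194 genes was -0.37 and 0.88. Tested against air in the same fit, which shares the air arrays between both comparisons, 2 genes were called higher and 0 lower at 1.5 h, and 72 higher and 45 lower at 6 h. The genes called at 1.5 h were *IZH4* (2.80, SE 0.37, adjusted p = 0.019) and *MGA2* (2.48, SE 0.37, adjusted p = 0.036).

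*Δhap1* cells at 6 h, which lack the plasmid copy as well, give a further view of the late level with the same labelled strain and time. *PAU2* read 14.54, 14.59 and 14.60 in *Δhap1* cells, and *PIR3* read 13.68, 13.80 and 13.70, so all 3 of those arrays stood at the level of the 6 h *HAP1* arrays of replicates 1 and 2. *PAU3* read 9.70, 10.29 and 7.85 in *Δhap1* cells, against 13.51, 13.30 and 6.91 in *HAP1* cells. *RRP14* read 8.62, 6.92 and 6.69 in *Δhap1* cells, within or below the 6.76 to 9.0 of *HAP1* cells at 6 h.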

How the data were processed

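RNA of strain L51 was hybridized to Affymetrix arrays. The authors converted the images with GCOS, computed intensity with RMA and deposited linear values, and the sample notes name both tools without versions. No column of that table was left unused, and the heme arrays, normalized apart, were not used. Log2 was taken of each deposited intensity. Gene names come from the platform's annotation, possibly dated, and 12 symbols were updated through RefSeq R64. Of 10928 probe sets 3683 had no name, 1 named several genes, 1746 were for *S. pombe* and 5498 remained. For 47 genes with several probe sets the brightest stood for the gene. A probe set counted as above background where it exceeded 95% of the probe sets designed for *S. pombe* on the same array. The number of arrays, not read depth, limits the precision.

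In R 4.3.3, limma 3.58.1 with statmod 1.5.0 took condition and replicate number in 1 fit over the 18 L51 arrays and Benjamini-Hochberg adjustment over 5449 genes at 0.05. The number was kept as a block because the study sets each array against the reference array of the same number and arrays that share a number also share a hybridization day. The deviations of such 6 h and 1.5 h arrays from their group means correlated at 0.59, 0.70 and -0.16 in the 3 pairs. P-values measure the spread that remains between arrays after condition and replicate number are fitted, over all 18 L51 arrays. A shift shared by the arrays of a replicate number does not enter them. Equal-distribution scaling means quantile scaling over the *S. cerevisiae* probe sets.

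The samples and the 40 gene lists were chosen with earlier results of these data known. Of 998 listed genes 25 were not analysed here. Genes were named by a rule that took the 12 largest rises and falls among genes 2-fold apart in all 3 pairs and above background on every array of the higher time, the 10 smallest p-values in each direction, up to 4 genes of each list called by limma or 2-fold apart in all pairs, and a fixed list of oxygen genes and regulators (144 genes). A further 16 were chosen after their values were seen: *TIR1*, *AUS1*, *PDR11*, *ARE1*, *NDE2*, *SDH2*, *SDH3*, *TFS1*, *TSL1*, *FIT1*, *FIT2*, *TIS11*, *AFT1*, *FRE4*, *HAP2* and *UPC2*. Alternatives covered the block, the arrays entering the fit, scaling, an offset of 50, dim probe sets, the choice of probe set, array weights, variance settings and a required 2-fold change. A planned search of promoters for motifs was not run, since no promoter sequences were used here.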

Additional observations from a re-analysis of the deposited data

How the results depend on the processing

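The counts of 194 genes higher and 638 lower kept within 1.5 times their value with an offset of 50, without dim probe sets, with probe sets of a gene averaged and with a variance trend. Quantile scaling gave 299 higher and 227 lower and cyclic loess 320 and 192, by construction without the common shift of -0.23. Without the replicate block 0 and 0 genes passed, with the 6 arrays alone 0 and 0 with or without the block (239 and 1148, or 174 and 694, at an unadjusted p under 0.05), and with a required 2-fold change 0 and 0 (49 and 73). The hybridization round as the block gave 61 and 107. Array weights, whose fit stopped before it converged, gave 1278 and 2020. Leaving out arrays gave 0 to 571 higher and 0 to 855 lower. Of these, the fits without replicate 1 or 2, or without either array of those pairs, gave 0, and without the 1.5 h array of replicate 3 the counts were 569 and 855. Chosen after seeing the data, that omission with the round as the block gave 391 and 505, and without the replicate block 163 and 345. Changes of 1.5-fold in all 3 pairs were met by 69 and 507 genes, 3-fold by 4 and 8, and 2-fold in replicates 1 and 2 by 437 and 717. The cause of these movements was not tested.

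Of 160 named genes 132 passed the threshold, and 0 of those changed sign in any alternative. The alternatives reuse the arrays in which these genes passed, which makes a change of sign unlikely. With the hybridization round as the block 91 of them no longer passed, and without the replicate block 132 did not. Among the 28 that did not pass in the main fit, 8 changed sign. With quantile scaling and cyclic loess *HAP1* was 0.13 and 0.32, *SSK22* 0.17 and 0.23, *MSN4* 0.049 and 0.093, and *OLE1* was -0.010 with cyclic loess. With the round as the block *USV1* was -0.23 and *TIR1* -0.0017, and with the 1.5 h array of replicate 3 also left out *USV1* was -0.22, *ANB1* -0.40 and *TIR1* -0.36. Without that array and without the block *OLE1* was -0.068, *USV1* -0.085 and *TIR1* -0.20. Leaving out arrays gave ranges of -0.53 to 0.19 for *SSK22*, -0.12 to 0.13 for *OLE1*, -0.70 to 0.25 for *HAP1*, -0.27 to 0.063 for *IZH4*, -0.12 to 0.25 for *USV1* and -0.037 to 1.55 for *TIR1*.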
